A study of Danio rerio with 36 samples.

Results

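Hemoglobin genes of the early zebrafish were followed across the full concentration range of BPA and TBBPA. The set was defined by gene identifier and held 8 genes, 4 for alpha chains (hbae1.2, hbae1.3, hbae3 and hbae5) and 4 for beta chains (hbbe1.2, hbbe1.3, hbbe2 and HBE1), out of 25856 genes in the BPA table and 26639 in the TBBPA table. Its genes were chosen with earlier results of these data known. The share of them called is therefore a description and no independent test. Bisphenol A (BPA) is used to make plastics and epoxy resins, and tetrabromobisphenol A (TBBPA) is its brominated relative, used as a flame retardant. The larvae were of the AB/Tub strain and were kept in HEPES-buffered E3 medium from 72 to 120 hours post fertilization (hpf) with 1 of the chemicals or with the carrier. Each library was made from a pool of 20 whole larvae, so that a value is a mean over 20 animals and over all their tissues.

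The BPA series had a carrier control (CC) and 0.00483, 0.0483, 0.483, 4.83 and 48.3 µM BPA, and the TBBPA series had its own CC and 0.000292, 0.00292, 0.0292, 0.292 and 2.92 µM TBBPA. All 12 groups had 3 replicates, which gave 18 libraries per series. The highest concentration of each chemical was its EC20, an effect concentration calculated earlier by the study's laboratory, and the pools held larvae of normal appearance. The labels call the controls a carrier control of 0.5% BPA or TBBPA and the study describes the carrier as 0.5% DMSO, and the controls are treated here as carrier only. Replicate 3 at 4.83 µM BPA and replicate 2 at 0.000292 µM TBBPA had stood apart in an earlier look at these data, and without them 8 and 6 globin genes were called at the highest concentrations, as with them. Reads on genes numbered 6056692 to 16520859 per BPA library and 7865327 to 11478099 per TBBPA library. Values are normalized counts, which are the reads of a gene divided by a factor for the depth of its library.

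Hemoglobin carries oxygen in red blood cells as a tetramer of alpha and beta chains, each holding a heme group. Zebrafish make embryonic chains first and replace them with adult chains as the larva grows, and their alpha and beta genes lie next to each other in clusters, unlike the separate alpha and beta clusters of mammals. Larval red cells at these ages still carry mainly the embryonic chains.

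In the gene order of the RefSeq annotation, hbbe2 and hbae5 stood side by side in a cluster of 4 globin genes, with hbae4 and hbbe3 beside them. Another cluster of 12 globin genes held hbbe1.2, hbae1.2, hbbe1.3, hbae1.3 and hbae3 as 5 neighbours in a row. The remaining member, ENSDARG00000113599, is listed under the human symbol HBE1 and could not be placed. The names hbbe1.2 (ENSDARG00000115405), hbbe1.3 (ENSDARG00000087390) and hbbe2 (ENSDARG00000045143) came from the study, since the reference table gives HBE1 for these also. Globin genes of a cluster are close copies of each other, and reads that match several copies equally well cannot be assigned to 1 of them. The level of a single copy is therefore uncertain, and so is that of a chain if such reads were not counted. The adult alpha gene hbaa1 was close to 0, with at most 1.93 normalized counts in the CC and 1.24 at 48.3 µM in the BPA series.

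The controls differed among themselves in globin expression. In the BPA series, replicate 3 of the CC was the highest of the 3 for all 8 genes. The values of hbae3 (ENSDARG00000079305) in the CC were 263, 295 and 552 normalized counts in replicates 1, 2 and 3, and those of HBE1 were 259, 292 and 610. The highest control was 1.37 times the lowest for hbbe2 and 1.73 to 3.03 times for the other 7 genes. In the TBBPA series, replicate 1 was the highest of the 3 CC libraries for 7 genes, and replicate 2 for hbbe2. The hbbe1.3 values there were 251, 53.1 and 104, so that the highest control was 4.72 times the lowest.

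As a description of this spread, the coefficient of variation (CV, the SD as a percentage of the mean) over the 3 BPA controls was 15.6% for hbbe2 and 33.6% to 51.2% for the others, where the median of all 17248 genes tested was 16.8%. Over the 3 TBBPA controls it was 19.2% for hbbe2 and 32.8% to 78.6% for the others, where the median of 18400 genes was 10.8%. The CV of hbae1.3 (ENSDARG00000089124) in the TBBPA controls lay at percentile 99.9 of all genes tested. The CV of the 8 genes lay at percentiles 46.1 to 95.5 of all genes in the BPA controls and 76.0 to 99.9 in the TBBPA controls, with hbbe2 lowest in both.

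The order of the replicates recurred at the low BPA concentrations. Replicate 3 was the highest library in 35 of the 40 combinations of a gene with 1 of the 5 groups below 48.3 µM, and it was the lowest of the 3 at 48.3 µM for all 8 genes. In the TBBPA series, replicates 1, 2 and 3 were highest in 19, 12 and 9 of 40 combinations. The genes moved together between libraries of a group. Across the 18 BPA libraries, the deviations from the group means of 7 genes (without hbae5, which was near 0) had pairwise correlations from 0.51 to 0.94, with a median of 0.67 over 21 pairs. For the 7 tested genes of the TBBPA series they ran from −0.08 to 0.96 with a median of 0.73. The genes of a pair share their libraries and some are close copies of each other, so that these correlations are a description.

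At 48.3 µM BPA, all 4 alpha genes were higher than in the CC. In RNA from whole larvae, more red cells and more globin RNA per cell cannot be told apart. The gene hbae3 had 1407, 1383 and 1004 normalized counts in replicates 1, 2 and 3, a mean of 1265 ± 226 against 370 ± 158 in the CC (SD, n = 3). The gene hbae1.3 had 239, 266 and 199 against 20.3, 28.1 and 53.5 in the CC. The values of hbae1.2 (ENSDARG00000088330) were 58.4, 65.6 and 50.4 against 9.65, 9.76 and 16.7. For each of these genes, the lowest library at 48.3 µM lay above the highest control and above all 15 libraries of the other groups. In 18% of all genes tested the 3 libraries at 48.3 µM lay above the 3 controls. The share that lay above all 15 libraries was not counted.

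The gene hbae5 (ENSDARG00000045142) was almost silent below 48.3 µM. It had 0.965, 2.44 and 2.92 normalized counts in the 3 BPA controls, which correspond to 1, 2 and 7 reads, and from 0 to 6.33 in the 15 libraries below 48.3 µM. At 48.3 µM it had 247, 276 and 215, which correspond to 431, 223 and 239 reads. The ratio of reads per unit of depth was 104, with an exact 95% counting interval of 56.0 to 217, which covers counting error only. No other gene of the 17248 tested had a larger log2 fold change. It passed the filter of a mean of at least 10 only through the 48.3 µM group, since its mean over the 15 other libraries was 1.91, and had to differ for that reason.

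The share of alpha reads that fell on hbae5 gives the same step as a proportion. It was 0% to 1.24% in the 15 libraries below 48.3 µM, and 12.7%, 13.9% and 14.7% in the 3 libraries at 48.3 µM. The exact binomial intervals of these 3 shares, which cover counting error only, were 11.6% to 13.8%, 12.2% to 15.7% and 12.97% to 16.5%. A share of 0 of 349 alpha reads, as in replicate 1 at 4.83 µM, allows up to 1.05% by the same method.

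The 4 beta genes were also higher at 48.3 µM BPA. The gene hbbe2 had 350, 255 and 220 normalized counts against 34.7, 28.1 and 38.4 in the CC, a mean of 275 ± 67.2 against 33.7 ± 5.26 (SD, n = 3). The values of hbbe1.2 were 463, 511 and 377 against 93.6, 100 and 170, and those of hbbe1.3 were 449, 511 and 306 against 99.4, 61.0 and 145. The gene listed as HBE1 rose from a mean of 387 ± 194 to 1262 ± 159, with values of 1401, 1296 and 1088. No library at 48.3 µM overlapped with any of the other 15 libraries for these genes, and the share of all genes with such a gap was not counted.

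**Figure D1:**
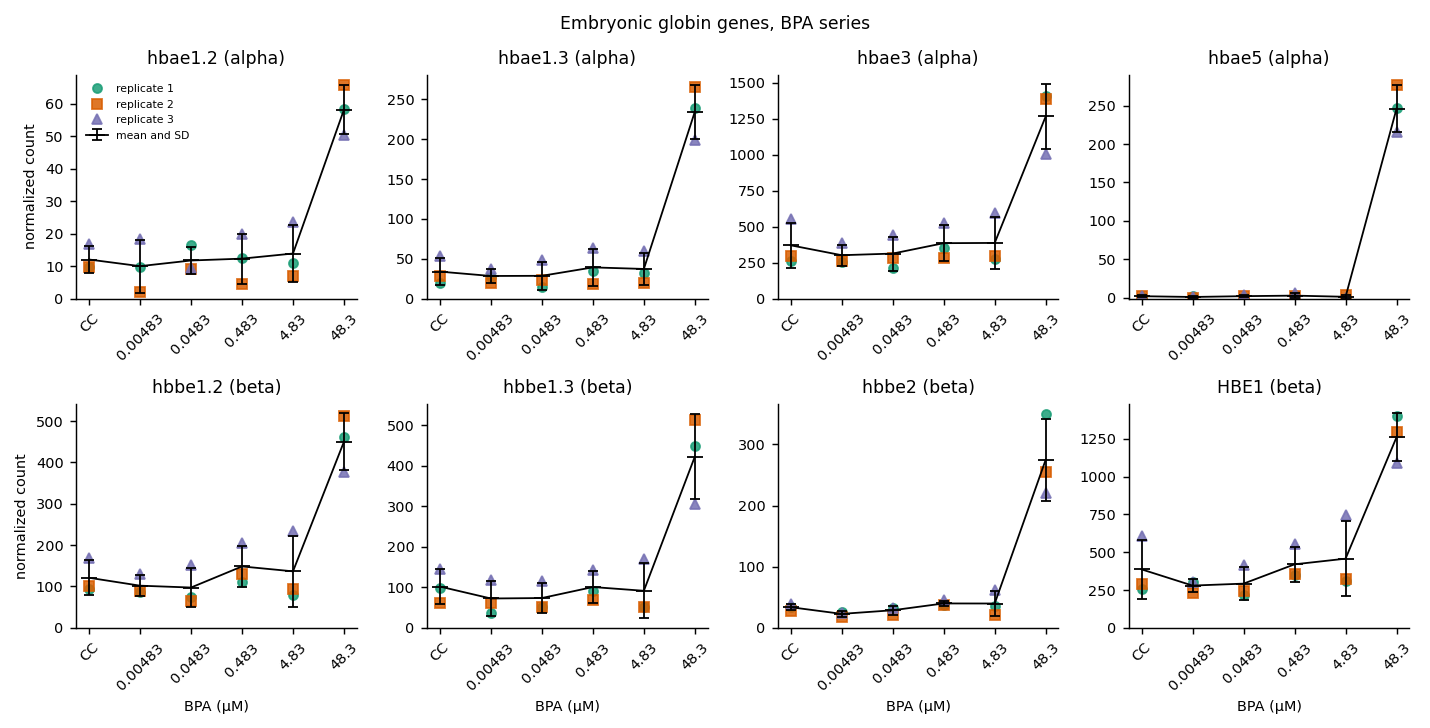
Normalized counts of the 4 alpha genes (upper row) and 4 beta genes (lower row) in the 6 groups of the BPA series, at evenly spaced positions for concentrations 10-fold apart. Points are the 3 replicates of each group and the black line joins the means with their SD, and all 3 libraries at 48.3 µM lie above the 15 others in each panel while the triangles of replicate 3 are mostly highest in the lower groups.

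The differences from the CC were tested with limma on log2(normalized count + 1), with Benjamini-Hochberg (BH) adjustment over all genes tested, and a gene was called where the adjusted p was under 0.05 and the fold was 1.5 or more. All 8 genes were called higher at 48.3 µM BPA, beside 1219 of 17248 genes tested, or 7.07%. Of these 8, hbae5 was tested only because of its level at 48.3 µM, and the 7 genes that passed the filter without that group were all called. The log2 fold changes of the alpha genes were 2.86 ± 0.37 (SE) for hbae1.3, 2.22 ± 0.49 for hbae1.2, 1.83 ± 0.25 for hbae3 and 6.36 ± 0.71 for hbae5. Those of the beta genes were 2.97 ± 0.27 for hbbe2, 2.09 ± 0.38 for hbbe1.3, 1.93 ± 0.26 for hbbe1.2 and 1.80 ± 0.26 for HBE1. The adjusted p ranged from 6.12e-06 for hbbe2 to 0.00597 for hbae1.2, and all 3 replicate pairs were higher for each gene. The groups did not overlap for any of the 8 genes, and in 18% of all genes tested the 3 libraries at 48.3 µM lay above the 3 controls.

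The neighbours hbbe2 and hbae5 had the largest log2 fold changes of the beta and the alpha genes, respectively. Their neighbour hbae4 (ENSDARG00000045144), which is not in the set and was too low to be tested, had 1 read in the 3 BPA controls together and 20 reads at 48.3 µM, with values of 4.01, 8.67 and 5.40 at 48.3 µM. The ratio of its reads per unit of depth was 23.2, with a counting interval of 3.71 to 961, which covers counting error only. In the other cluster, the 5 members had log2 fold changes from 1.83 to 2.86, and the neighbour hbae1.1 (ENSDARG00000089475), an embryonic alpha gene outside the set, had 6.75, 15.9 and 17.5 normalized counts in the CC and 61.8, 52.0 and 45.9 at 48.3 µM, a log2 fold change of 2.00 with an adjusted p of 0.00653. The gene hbae5 was tested only because of its level at 48.3 µM. The log2 fold change of hbbe2 (2.97 ± 0.27, SE) was close to that of hbae1.3 (2.86 ± 0.37) in the other cluster. At 2.92 µM TBBPA, hbbe2 had the smallest log2 fold change of the called genes (0.83 ± 0.20). The difference between the clusters was not tested.

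The log2 fold change of hbae5 depends on the count of 1 added before taking logs. With 10 added in place of 1, it was 4.40, and with 0.5 it was 6.64. Its position as the gene with the most extreme ratio rests on 10 control reads in all.

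No globin gene was called at the 4 lower BPA concentrations, where 0% of 17248 genes were called in either direction at each concentration. The count of globin genes with an unadjusted p under 0.05 was also 0 at each of them, and edgeR and DESeq2 on the reads also called 0. Of 17248 genes tested, 210, 208, 280 and 510 had an unadjusted p under 0.05 at these concentrations in rising order. At 0.00483 µM, all 8 log2 fold changes lay below 0, from −0.66 to −0.18, and at 0.0483 µM 7 of 8 did. At 0.483 µM, 5 of 8 lay above 0, from −0.13 to 0.29 over the set, and at 4.83 µM 6 of 8 did. Among all genes tested, 50.1%, 48.8%, 50.6% and 46.0% lay above 0 at these concentrations in rising order. The 8 genes share their controls and moved together between libraries, so that their directions are not separate observations.

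For 7 of the 8 genes the mean was lowest at 0.00483 µM, and for hbbe1.2 at 0.0483 µM. The clearest case was hbbe2, with 26.6, 17.8 and 24.0 normalized counts at 0.00483 µM, all below the lowest control at 28.1. Its log2 fold change was −0.55 with a 95% interval from −1.13 to 0.02 (adjusted p = 1.00), and 2.79% of all genes had 3 libraries below the 3 controls at that concentration. With the groups of a gene put in order of their means, every neighbouring pair among the 5 lower groups overlapped, and the gap between the fifth and the highest was the only one without overlap. A moderated F test over these 5 groups called 0 of 8 genes, 0 with an unadjusted p under 0.05, and 0% of all genes. Over all 6 groups it called 8 of 8 (adjusted p from 1.05e-05 to 0.0120), beside 12.9% of all genes, and hbae5 again passed the filter only through the highest group. With replicate 1, 2 or 3 left out it called 4, 2 and 8.

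The intervals show what the lower concentrations could hide. For hbae3, the 95% interval of the log2 fold change at 0.00483 µM ran from −0.77 to 0.29, and for hbae1.2 it ran from −1.61 to 0.49. The widest at this concentration was that of hbae5, from −2.18 to 0.86. The smallest change that could be detected with 3 replicates was not computed.

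At 2.92 µM TBBPA, the means of all 8 genes were again higher than in the CC. The concentrations of the chemicals differ, and the series were not compared by a test. The alpha gene hbae3 had 1016, 896 and 1050 normalized counts in replicates 1, 2 and 3 against 744, 379 and 458 in the CC, a mean of 988 ± 80.9 against 527 ± 192 (SD, n = 3). The gene hbae1.3 had 251, 143 and 233 against 125, 35.1 and 36.4. The values of hbae1.2 were 121, 112 and 144 against 89.2, 28.5 and 37.4. The groups did not overlap for these 3 genes, and replicate 1 of the CC lay closest to the treated pools in each. In 10.5% of all genes tested the 3 libraries at 2.92 µM lay above the 3 controls.

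The gene hbae5 was low in the TBBPA series. It had 5.94, 2.85 and 2.08 normalized counts in the CC and 44.1, 7.47 and 19.4 at 2.92 µM, from 5, 3 and 2 reads and from 47, 7 and 18 reads. The ratio of reads per unit of depth was 7.02, with an exact counting interval of 3.60 to 15.3, which covers counting error only and not the spread between these pools. Replicates 1 and 3 at 2.92 µM lay above all 15 libraries of the other groups, and replicate 2 lay within their range, which reached 8.21. With a mean of 7.53 over 18 libraries it was not tested. Without the filter on low values it was called, with a log2 fold change of 2.19 and an adjusted p of 0.0268, and DESeq2 gave no adjusted p for it. The share of alpha reads on hbae5 was 3.08%, 0.645% and 1.34% at 2.92 µM and 0.390% to 1.41% in the 15 other libraries.

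Of the beta genes, hbbe1.3 had 470, 257 and 524 normalized counts at 2.92 µM against 251, 53.1 and 104 in the CC, so that the lowest treated pool exceeded the highest control by a small margin. The gene hbbe1.2 had 286, 205 and 325 against 193, 102 and 104. The gene hbbe2 had 91.9, 104 and 97.0 against 57.1, 64.5 and 43.7, with the smallest spread of the set in both groups. HBE1 had 1002, 1053 and 855 against 893, 529 and 520, and it was the only gene whose groups at 2.92 µM and in the CC overlapped. For hbbe1.2, hbbe1.3 and HBE1, 2 of the 3 libraries at 2.92 µM lay above all 15 libraries of the other groups. The highest of these 15 was 209, 278 and 908, respectively. For hbbe2 all 3 libraries at 2.92 µM lay above the 15. The share of all genes with such a gap was not counted.

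**Figure D2:**
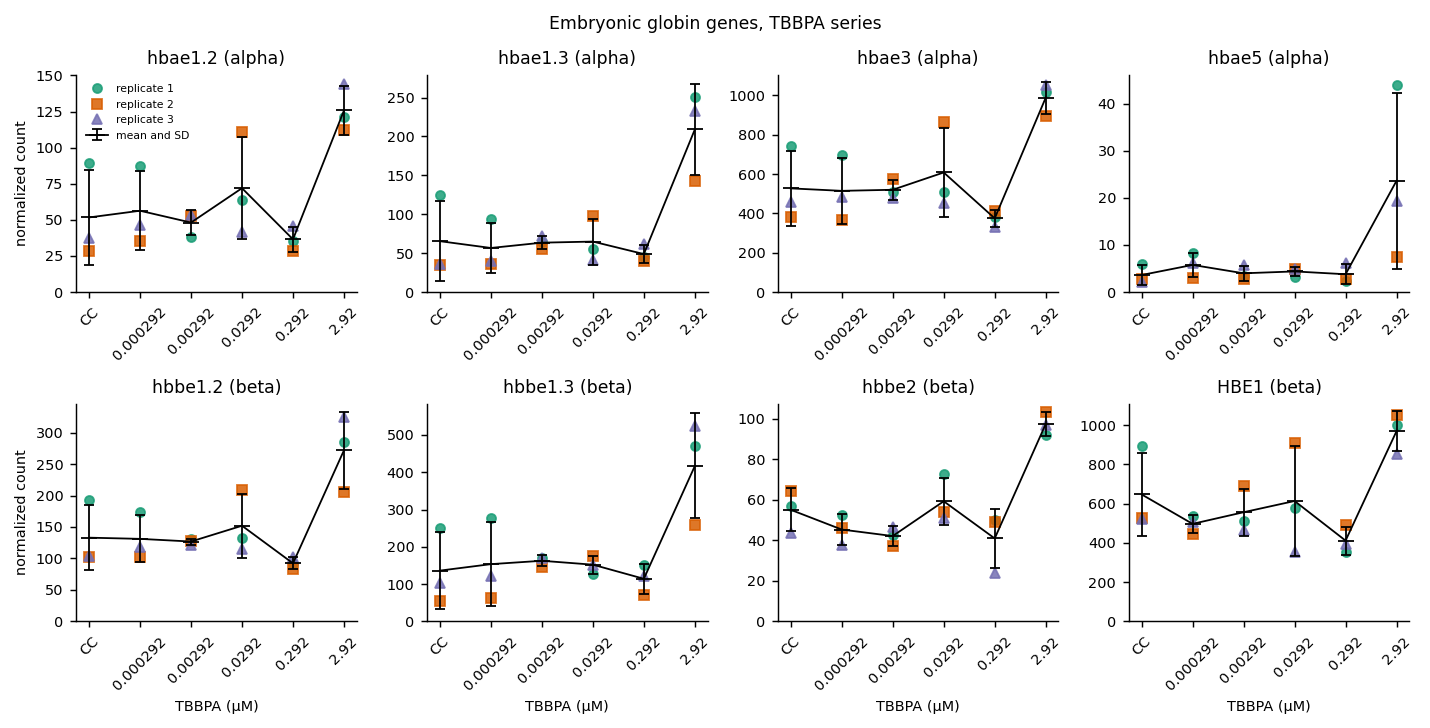
Normalized counts of the 4 alpha genes (upper row) and 4 beta genes (lower row) in the 6 groups of the TBBPA series, at evenly spaced positions for concentrations 10-fold apart. Points are the 3 replicates of each group and the black line joins the means with their SD, and the mean is highest at 2.92 µM for all 8 genes and lowest at 0.292 µM for the 7 genes other than hbae5.

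Of the 7 genes tested at 2.92 µM TBBPA, 6 were called higher, beside 121 of 18400 genes tested, or 0.658%. The log2 fold changes were 1.88 ± 0.36 (SE) for hbae1.3, 1.83 ± 0.33 for hbbe1.3, 1.43 ± 0.36 for hbae1.2, 1.07 ± 0.22 for hbbe1.2, 0.96 ± 0.22 for hbae3 and 0.83 ± 0.20 for hbbe2. The adjusted p ranged from 0.00633 for hbbe1.3 to 0.0350 for hbae1.2. HBE1 had a log2 fold change of 0.63 ± 0.21, with an interval from 0.19 to 1.06 and an adjusted p of 0.0992, and was not called. The values of all 8 genes were higher in all 3 replicate pairs, and in 7 of the 8 the groups did not overlap, as in 10.5% of all genes tested.

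The TBBPA calls depended on single libraries. Without replicate 1 or replicate 2 in all groups, 5 and 4 genes were called. Without replicate 3 in all groups, 0 of 7 genes were called, with log2 fold changes from 0.58 to 1.58, adjusted p from 0.147 to 0.289 and unadjusted p under 0.05 for all 7, and 19 genes were called in all. Leaving out 1 control alone, an alternative chosen after the data were seen, gave 6 calls without replicate 1, 0 without replicate 2 and 1 without replicate 3. Leaving out 1 library at 2.92 µM gave 2, 4 and 1 calls without replicates 1, 2 and 3. With no replicate block in the fit, 2 genes were called, hbae1.3 and hbbe1.2. The direction was the same in all of these fits. The BPA calls at 48.3 µM numbered 8 with any single control or treated library left out, 7 without replicate 1 or replicate 2 in all groups and 8 without replicate 3, where hbae1.2 (adjusted p = 0.124) and hbbe1.3 (adjusted p = 0.0802) were the genes lost.

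No globin gene was called at the 4 lower TBBPA concentrations, where the called share of 18400 genes was 0.0272% at 0.000292 µM, all of them lower, and 0% at the others, and edgeR and DESeq2 also called 0 globin genes. The lowest point of the curve lay 1 step below the highest. At 0.292 µM, all 7 log2 fold changes were below 0, from −0.62 to −0.04, where 49.9% of all genes tested lay above 0. The directions of the 7 genes are not separate observations, since they share their controls. HBE1 had 352, 491 and 392 normalized counts there, all below the lowest control at 520, and a log2 fold change of −0.62 ± 0.21 (SE; interval from −1.05 to −0.19; adjusted p = 0.947). The gene hbbe1.2 had 91.5, 82.9 and 102, also all below its controls, with a log2 fold change of −0.46. Of the 7 genes, 2 had an unadjusted p under 0.05 at 0.292 µM (HBE1 and hbbe2), as had 966 of 18400 genes tested. In 4.58% of all genes the 3 libraries lay below the 3 controls.

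The summed alpha count was 443 to 483 in the 3 libraries at 0.292 µM and 446 to 964 in the 3 controls, and the summed beta count was 640 to 692 against 749 to 1393. The CV was smaller at 0.292 µM than in the CC for 6 genes, while that of hbbe2 was 35.9% against 19.2% and that of hbae5 56.7% against 56.5%. The mean was lowest at 0.292 µM for 7 of 8 genes, with hbae5 as the exception. A moderated F test over the 5 lower groups called 0 of 7 genes, with 1 at an unadjusted p under 0.05, beside 11 of all genes, or 0.0598%. Over all 6 groups it called 7 of 7 (adjusted p from 0.00644 to 0.0428), beside 4.15% of all genes. With no replicate block it called 3, and with replicate 1, 2 or 3 left out it called 3, 5 and 0.

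Set against the next lower concentration in place of the CC, a comparison chosen after the data were seen, all 7 tested genes were higher at 2.92 µM than at 0.292 µM. The log2 differences ran from 1.24 ± 0.21 (SE) for HBE1 to 2.06 ± 0.36 for hbae1.3, with adjusted p from 0.000537 to 0.00468, and 1.77% of all genes were called higher. For BPA, the log2 differences between 48.3 and 4.83 µM ran from 1.58 for HBE1 to 2.86 for hbbe2 without hbae5. These 7 genes were all called, beside 6.54% of all genes. The gene hbae5 (7.17) was also called, but it was tested only because of its level at 48.3 µM.

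**Figure D3:**
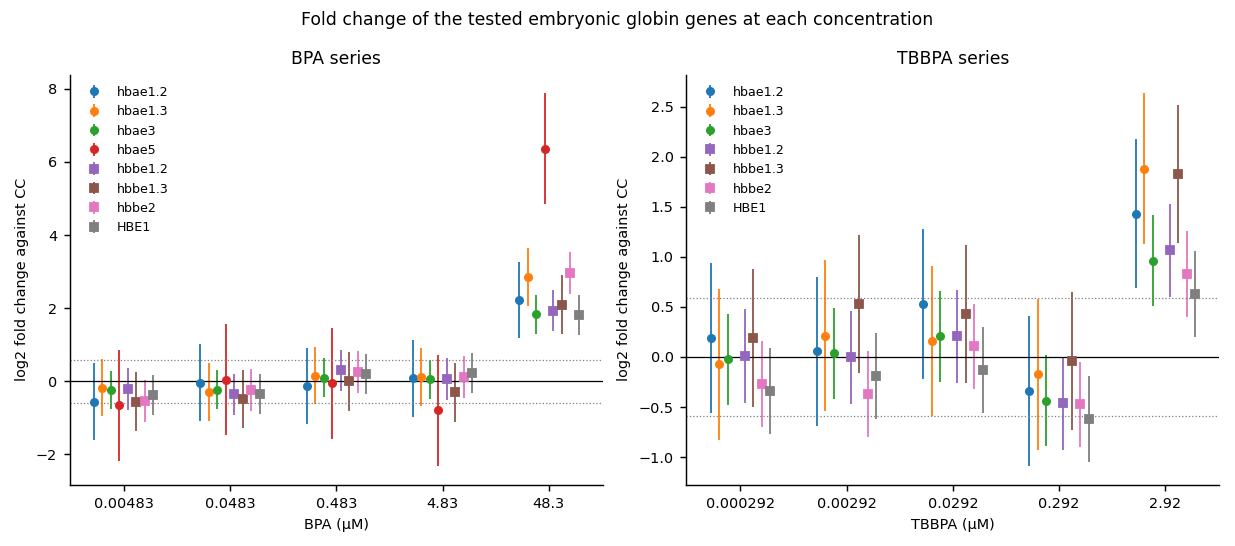
Log2 fold change against the CC of the 8 genes tested in the BPA series (left) and the 7 tested in the TBBPA series (right) at each of 5 concentrations, with 95% intervals from limma. Circles are alpha genes, squares are beta genes and dotted lines mark a 1.5-fold change, and the intervals lie above 0 at the highest concentration for every gene shown.

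Alpha and beta genes kept close to a common ratio. The summed alpha count was 294, 336 and 625 in the BPA controls and 1951, 1991 and 1469 at 48.3 µM, and the summed beta count was 486, 481 and 964 against 2662, 2574 and 1991. Alpha over beta was 0.605 to 0.698 in the BPA controls, 0.733 to 0.773 at 48.3 µM and 0.519 to 0.833 in the 12 libraries between. In the TBBPA series it was 0.595 to 0.692 in the controls, 0.716 to 0.803 at 2.92 µM and 0.667 to 0.848 in the libraries between. The ratio was thus higher at the highest concentration than in the CC of each series without overlap, and within the range of the lower concentrations. At 48.3 µM BPA, hbae5 took 12.7% to 14.7% of the alpha reads, against 0.328% to 0.727% in the CC. Of the summed alpha counts of 1951, 1991 and 1469 at 48.3 µM, hbae5 made up 247, 276 and 215. The higher ratio at 48.3 µM BPA is not shown for the other alpha genes, since it was not computed without hbae5. Counts were not divided by gene length, so that the ratio compares libraries and does not give the balance of the chains.

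**Figure D4:**
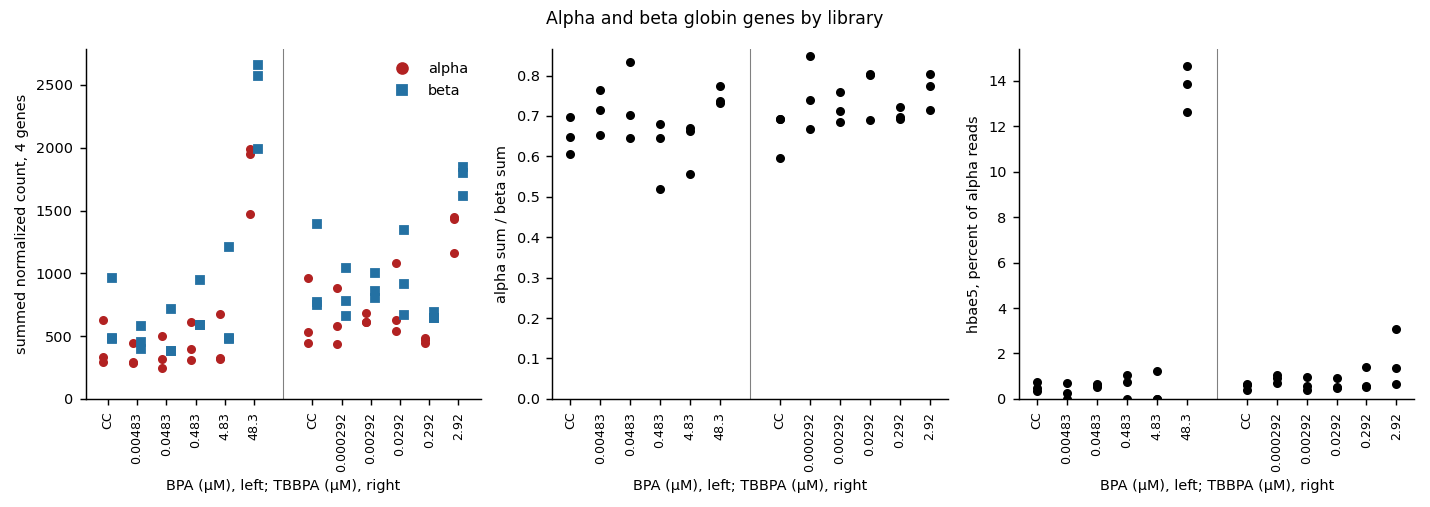
Summed normalized counts of the 4 alpha genes (circles) and the 4 beta genes (squares), their ratio, and the percentage of alpha reads that fell on hbae5, with 1 point per library and the BPA groups left of the TBBPA groups. Both sums are highest at 48.3 µM BPA and 2.92 µM TBBPA, the ratio stays between 0.519 and 0.848, and the hbae5 share leaves the range of 0% to 3.08% only at 48.3 µM BPA.

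The genes most like the set in profile, by the Pearson correlation with the mean standardised profile of its tested members over 18 libraries, included SLC4A1 (ENSDARG00000012881) in both series. It encodes the anion exchanger of the red cell membrane. In the BPA series the 5 nearest genes were znfl2a (a zinc finger gene, r = 0.96), PTGS2 (a cyclooxygenase of prostaglandin synthesis, r = 0.95), SLC4A1 (r = 0.95), HSPB1 (a small heat shock protein, r = 0.95) and si:dkey-85k7.7 (r = 0.95). Over the 15 libraries below 48.3 µM their r fell to between 0.66 and 0.81. In the TBBPA series they were serpinf2a (an inhibitor of the clot-dissolving protease plasmin, r = 0.93), SLC4A1 (r = 0.92), FTCD (an enzyme of histidine breakdown, r = 0.91), apoa1b (an apolipoprotein of high-density lipoprotein, r = 0.91) and F7 (a clotting factor, r = 0.91). Their r was 0.77 to 0.89 over the 15 libraries below 2.92 µM, lowest for SLC4A1. Of the genes named here, znfl2a and SLC4A1 were in the lists of red cell, heme synthesis and other hemoglobin genes. PTGS2, HSPB1, si:dkey-85k7.7, serpinf2a, FTCD, apoa1b and F7 were not.

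Genes listed for the red cell changed unevenly at 48.3 µM BPA. They were listed by symbol, and the part of their RNA that came from red cells was not measured in whole larvae. Of 14 tested genes listed for the erythroid membrane, cytosol and iron handling, 5 were called higher and none lower. Their median log2 fold change was 0.18 beside −0.02 for all genes. Among all genes tested, 7.07% were called higher and 6.93% lower. The gene slc4a1a, listed as SLC4A1, had 198, 224 and 166 normalized counts at 48.3 µM against 28.9, 18.3 and 38.0 in the CC (log2 fold change 2.79, adjusted p = 9.47e-05). The others named by size were epb41b (protein 4.1 of the membrane skeleton, 1.90), nt5c2l1 (a nucleotidase, 1.36) and fth1a (ferritin heavy chain, 1.29). The carbonic anhydrase gene cahz was not called, with values of 279.8, 254 and 255 in the CC and 259.9, 318 and 270.2 at 48.3 µM. The log2 fold changes of 8 of the 14 lay above 0. In limma, cat (−0.43, adjusted p = 0.0219) and bpgm (−0.32, adjusted p = 0.0453) were lower by less than 1.5-fold and so not called.

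Of 10 tested heme synthesis genes, 3 were called higher, with a median of 0.60, where 7.07% of all genes tested were called higher. The gene alas2, the erythroid enzyme of the first step, had 73.9, 86.7 and 52.2 normalized counts against 5.79, 9.76 and 22.1 (log2 fold change 2.56, adjusted p = 0.00625). Its housekeeping counterpart alas1 (1.76) and cpox (1.14), a later enzyme of the path, were the other 2. Of 3 tested genes for clearance, blvrb (a biliverdin reductase, 0.78) was called. Of 4 other globin family genes, mb (myoglobin, the oxygen store of muscle, 2.02) was called. It had 985, 676 and 772 at 48.3 µM against 106, 492 and 146 in the CC. The median of these 4 genes was 0.11, and 2 of them lay above 0. The family member cygb2 had 12.6, 11.1 and 23.4 at 48.3 µM against 33.8, 28.1 and 26.7 in the CC. It was not called (log2 fold change −0.93, adjusted p = 0.0986).

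Of 11 erythroid regulators tested, 1 was called, the zinc finger gene znfl2a (1.51), with 72.7, 70.6 and 63.1 normalized counts at 48.3 µM against 21.2, 22.0 and 27.6, and the list had a median of −0.08. The share of all genes called higher was 7.07%, and edgeR and DESeq2 each called 2 of the 11. The gene gata1a, the main erythroid transcription factor, was too low to test, with 0, 0 and 0.418 normalized counts in the CC and 2.29, 2.48 and 3.60 at 48.3 µM. The erythroid factor klf17 had 63.7, 64.7 and 52.2 against 51.0, 69.3 and 49.5 at 48.3 µM, with overlapping groups. The log2 fold changes of 4 of the 11 lay above 0. The regulator hemgn had 131, 183 and 132 at 48.3 µM against 71.4, 97.6 and 92.8 in the CC. It was not called (log2 fold change 0.76, adjusted p = 0.0502). The blood and vessel factor tal1 was lower in the 3 treated pools than in the 3 controls but not called (adjusted p = 0.0711). So was sox6, with a log2 fold change of −0.41 and an adjusted p of 0.0109, which was less than a 1.5-fold change.

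Of 8 tested hypoxia-response genes, 3 were called higher at 48.3 µM BPA, with a median of 0.63, beside 7.07% of all genes tested. The gene egln3, an oxygen sensor that is itself induced by low oxygen, had 421, 199 and 168 normalized counts against 13.5, 8.54 and 9.61 (log2 fold change 4.42, adjusted p = 2.58e-05), and ankrd37 (1.47) and pfkfb3 (1.35) were the other 2, while edgeR called 4 of the 8. Among leukocyte and thrombocyte markers, marco (1.47) and ptprc (1.15) were called of 4 tested, and the summed level of the 7 markers listed was 99.4 to 153 in the CC and 211 to 300.0 at 48.3 µM. Of 6 endothelial markers, 0 were called by limma, edgeR or DESeq2 and 0 had an unadjusted p under 0.05, with sums of 409 to 598 and 463 to 550.2. Among all genes tested, 5335 of 17248 had an unadjusted p under 0.05 in limma. Of 12 markers of other larval tissues, fabp10a of the liver (−2.07), mbpa of myelin (−1.36) and rho of the rods (−1.26) were called lower, as were 6.93% of all genes. The part of these cell types in the globin values was not tested.

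At 2.92 µM TBBPA, 2 genes of the lists were called, where 0.658% of all genes tested were called higher. Of 16 tested genes listed for the erythroid membrane, cytosol and iron handling, 1 was called, slc4a1a. It had 133, 130 and 189 normalized counts against 68.9, 53.1 and 56.2 in the CC (log2 fold change 1.32, adjusted p = 0.0140). The gene alas2 had 32.8, 26.7 and 39.9 against 23.8, 12.3 and 12.5, with a log2 fold change of 1.03 and an adjusted p of 0.168, and limma, edgeR and DESeq2 called 0 of 11 heme synthesis genes, of which 4 had an unadjusted p under 0.05. The neighbour hbae1.1 had 81.6, 120 and 64.6 against 91.5, 55.0 and 38.5, with overlapping groups and an adjusted p of 0.241, and hbae4 had 3 reads against 5 in the controls. Limma, edgeR and DESeq2 called 0 of 12 erythroid regulators, 8 hypoxia-response genes and 6 endothelial markers, of which 1, 2 and 1 had an unadjusted p under 0.05. Among all genes tested, 3634 of 18400 had an unadjusted p under 0.05 in limma. The 3 tested genes for clearance had a median log2 fold change of −0.43, and 2 had an unadjusted p under 0.05 but 0 were called. Of 4 leukocyte and thrombocyte markers, 3 had an unadjusted p under 0.05, and limma called 0, edgeR 1 and DESeq2 0. Of 12 tissue markers, limma called tfa (transferrin, 1.27), edgeR called 1 and DESeq2 called 0. The leukocyte sums were 146 to 189 in the CC and 219 to 233 at 2.92 µM, and their part in the globin values was not tested.

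**Figure D5:**
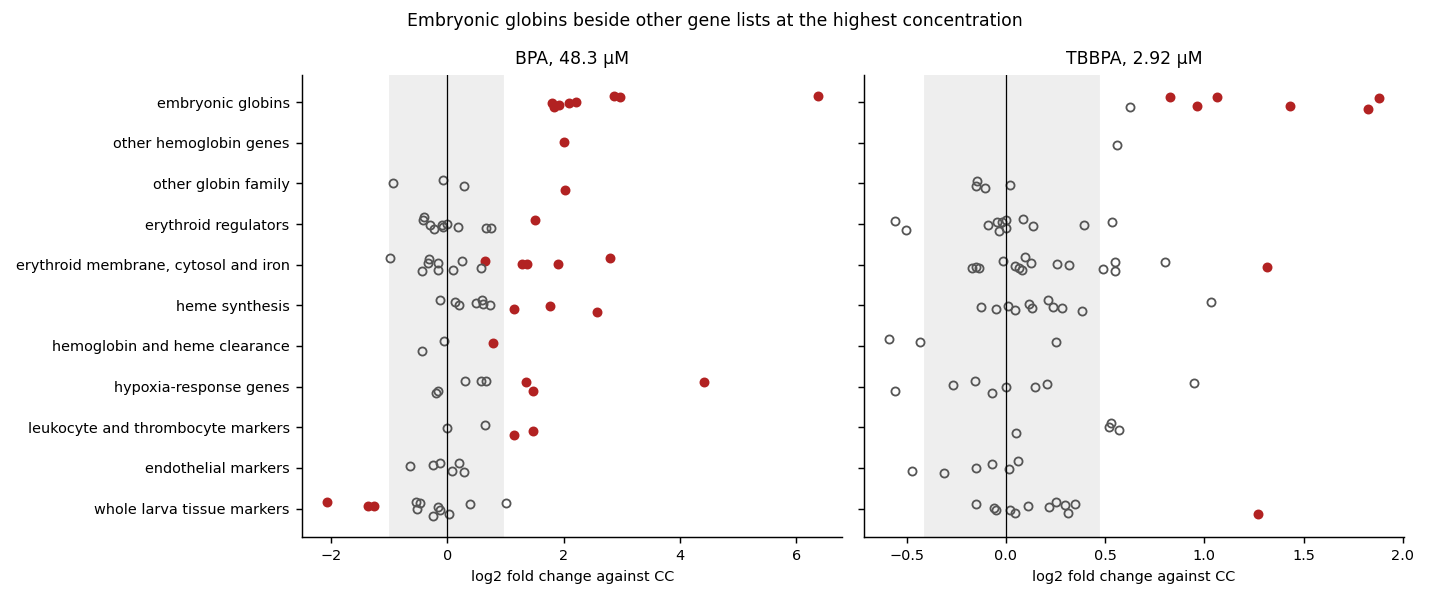
Log2 fold change against the CC of the tested genes of each list at 48.3 µM BPA (left) and 2.92 µM TBBPA (right), with filled points for genes called changed and open points for the others. The grey band spans percentiles 5 to 95 of all genes tested, from −0.98 to 0.96 for BPA and from −0.41 to 0.47 for TBBPA, and the points of the 8 BPA and 7 TBBPA embryonic globin genes tested lie to its right.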

How the data were processed

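RNA-seq libraries of pooled zebrafish larvae were analysed, 18 in each of 2 series. The authors' steps, as the study and the submitters' notes give them, were trimming (cutadapt), alignment to the GRCz11 genome (STAR), counting per gene (the quant mode of STAR) and division by DESeq2 size factors. The authors deposited these normalized counts, a signal value that is never negative, in 1 table per chemical. The handling of reads that match several globin copies is not given in the sources used here. All values (100%) were whole multiples of 1 step per library within a relative tolerance of 1e-06, so the reads behind them were recovered.

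Names were matched for 24011 of 25856 and 24665 of 26639 identifiers. The gene order came from RefSeq GRCz12tu, another assembly than the authors', and no coordinates or sequences were used. Members and lists were chosen with earlier results of these data known. At most 4 called genes per list were named by size, with list-defining genes beside them, and the 5 genes per series nearest to the members in profile.

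Genes with a mean of at least 10 were tested in R 4.3.3 with limma 3.58.1 (lmFit, eBayes with trend) on log2(value + 1), over 18 libraries per series, with a term for the replicate, which the authors' own model also held, and BH adjustment over 17248 or 18400 genes. The 2 tables were normalized separately and tested separately, since their concentrations differ. The pairing by replicate number comes from the study, which states that replicates used different clutches and does not state that a number marks 1 clutch in every group. Deviations of same-numbered libraries had a median correlation across genes of 0.115 (BPA) and 0.166 (TBBPA), against −0.06 and −0.08 for other numbers, and for the CC with the highest concentration −0.0436, 0.111 and 0.210 (BPA) and 0.169, 0.0856 and 0.213 (TBBPA). p-values measure the spread between these pools. Alternatives were a fit without the block, pseudocounts of 0.5 and 10, no filter, TMM scaling, edgeR 4.0.16 and DESeq2 1.42.0 on the reads, the 2 compared groups alone, and left-out replicates or libraries, of which single controls or treated libraries and the next lower concentration as reference were chosen after the data were seen. The fits were tested on simulated data. Figures and descriptive values were made in Python 3.11.15 with numpy 2.4.6, pandas 2.3.3, scipy 1.17.1 and matplotlib 3.10.9.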

Additional observations from a re-analysis of the deposited data

How the results depend on the processing

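The count of 8 genes called at 48.3 µM BPA was 7 to 8 with a replicate number or a single library left out and 8 under every other alternative, and 0 were called at lower concentrations under the alternatives run there. Leaving out single controls or treated libraries was tried for the highest concentrations only. Of 6 called at 2.92 µM TBBPA, 2 were left with no replicate block, and 0 to 6 with a replicate number or a single library left out. DESeq2 called 4, edgeR 6, and the fit to the 2 compared groups alone 8, with HBE1 (adjusted p = 0.0270) and with hbae5, which passed the filter there only through the 2.92 µM group. The F test over 6 groups called 2 to 8 BPA genes, against 8, and 0 to 5 TBBPA genes, against 7, with a replicate number left out, 3 TBBPA genes with no replicate block and 0 in both series over the 5 lower groups only. Without replicate 3 at 4.83 µM BPA the count was 8, and without replicate 2 at 0.000292 µM TBBPA it was 6. Over all genes, 2414 were called at 48.3 µM BPA (2307 with no replicate block, 1224 or 1164 without replicate 1 or 2, 3562 without replicate 3 at 4.83 µM), and 158 at 2.92 µM TBBPA, 69 with no replicate block, 97 with DESeq2 19 to 114 with a replicate number left out, 225 without replicate 2 at 0.000292 µM and 62 to 211 with a single control or treated library left out. No log2 fold change at the highest concentration changed sign. The replicate block, a pairing by replicate number, changed no BPA globin call. Depth limited hbae5 below 48.3 µM BPA and in the TBBPA series, where it had 2 to 8 reads per library below 2.92 µM.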
